A study of Mus musculus with 8 samples.

Results

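Granzyme-positive, PD-1 negative CD8 T cells were examined in single-cell libraries from brain tumors of mice. A cell was chosen by its transcripts alone. Each transcript was counted once through its unique molecular identifier (UMI), a tag added before amplification. The droplet had to hold at least 1000 UMIs, 200 to 6000 genes and at most 10% mitochondrial UMIs. It also had to hold at least 2 UMIs of the CD3 genes (Cd3d, Cd3e, Cd3g), at least 2 of the CD8 genes (Cd8a, Cd8b1), at least 2 of the granzymes Gzmb and Gzmk together, and none of Cd4, Pdcd1 (which encodes PD-1), Mki67 or Top2a. This rule gave 1200 cells, called members here, of 5952 CD8 T cells and of 39632 cells that passed the filters. Members with UMIs of Gzmk but none of Gzmb were called Gzmk-only (261 cells), those with the reverse Gzmb-only (516 cells), and 423 cells held both. Levels of the 11 genes used for selection are therefore given as a description and were not tested.

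CD8 T cells kill infected or malignant cells by releasing granules. Perforin opens a path into the target cell, and granzymes, which are serine proteases, then cleave proteins inside it. Granzyme B triggers cell death, whereas granzyme K is weakly cytotoxic and is typical of memory-like CD8 T cells that produce cytokines. PD-1 is an inhibitory receptor induced by antigen receptor signaling and kept on chronically stimulated cells. CD8 T cells without it include naive cells, many memory cells and innate-like cells that carry receptors shared with natural killer (NK) cells.

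All mice carried ependymoma driven by the ZFTA-RELA fusion, a tumor of the central nervous system (genotype NestinCreERT2;Fus1;RFPTdT, in which the fusion is switched on in Nestin-expressing neural progenitors by an inducible Cre). At 3 weeks of age they were randomised to 1 intrathecal dose of the control antibody (vehicle IgG) or of mavrilimumab at 5 mg per kg, an antibody that blocks GM-CSF receptor alpha, and tissue was taken at 6 to 8 weeks. Leukocytes stained for CD45 and Ter119 were sorted from the tumors and run in 2 gene expression libraries per group, with receptor (TCR) libraries beside them. The study describes the sequenced cells as extravascular leukocytes of tumors at recurrence, and states for the receptor analysis that tumors of several mice were pooled per group. A library is thus not an animal, and p-values measure the spread between libraries.

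Several features of the libraries bear on every result. Total UMIs ranged from 24354457 (vehicle IgG 1) to 148657643 (vehicle IgG 2), and cells passing the filters from 984 to 26746. Vehicle IgG 1 held only 4 members, so it entered no test across genes. Cells with no CD3 UMI and at least 5 UMIs summed over a short list of microglial genes, among them C1qa and Csf1r, served as reference cells for background (715, 2665, 395 and 1711 cells from vehicle IgG 1 to mavrilimumab 2). They are not a pure cell type: the microglial list summed to 42539, 4326, 19879 and 25937 counts per 1000000 UMIs in them, but neural genes to 11007 in vehicle IgG 2 and B cell genes to 38054 in mavrilimumab 1. Members had a median of 9250, 2908, 4604 and 12700 UMIs in vehicle IgG 1, vehicle IgG 2, mavrilimumab 1 and mavrilimumab 2. No member barcode was shared between libraries. The inner sample name of 3 of 3 TCR files named the other treatment than the label. Of the receptor-bearing barcodes in the TCR library labelled mavrilimumab 1, 91.6% (2458 of 2682) occurred among the barcodes of expression library mavrilimumab 2. The TCR library labelled mavrilimumab 2 matched expression library mavrilimumab 1 in 89.0% of its barcodes (4771 of 5363). Receptors are therefore given by the expression library whose barcodes they matched, and directions between the treatments follow the labels of the expression libraries. By those labels, CD8 T cells were 6.91% and 7.65% of cells in the vehicle IgG libraries and 30.6% and 34.2% in the mavrilimumab libraries. For vehicle IgG 2, receptors were not analysed here.

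The receptors show which members descend from 1 T cell. Members were joined to their sister cells by the nucleotide sequences of the third complementarity-determining region (CDR3) of the TRA and TRB chains together. These sequences are printed for the clones with the most members in each mavrilimumab library, for most clones those of the TRB chain alone. They run 5′ to 3′, and capitals mark bases between the matched V segment and the matched J segment. These matches can themselves cover D segment or untemplated bases: the printed chains with TRBJ1-1 differ within their lowercase J bases. A sequence with no capitals has V and J matches that meet or overlap, and may still hold such bases. The first pair are both chains of the clone with the most members, which used TRBV3 with TRBJ1-3 and TRAV6-7-DV9 with TRAJ52.
mavrilimumab 1 clone 1 TRB: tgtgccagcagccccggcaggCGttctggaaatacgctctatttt
mavrilimumab 1 clone 1 TRA: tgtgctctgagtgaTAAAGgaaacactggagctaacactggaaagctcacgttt
mavrilimumab 1 clone 2 TRB: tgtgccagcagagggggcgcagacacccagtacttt
mavrilimumab 1 clone 3 TRB: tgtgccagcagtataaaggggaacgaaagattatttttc
mavrilimumab 1 clone 4 TRB: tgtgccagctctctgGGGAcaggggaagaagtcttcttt
mavrilimumab 2 clone 1 TRB: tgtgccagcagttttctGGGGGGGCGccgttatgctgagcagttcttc
mavrilimumab 2 clone 2 TRB: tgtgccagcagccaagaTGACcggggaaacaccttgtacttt
mavrilimumab 2 clone 3 TRB: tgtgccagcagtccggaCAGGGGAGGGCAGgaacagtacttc
mavrilimumab 2 clone 4 TRB: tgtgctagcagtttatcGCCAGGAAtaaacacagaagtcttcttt

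Clone 1 of mavrilimumab 1 held 45 receptor-bearing cells, of which 15 were members: 9 Gzmk-only and 6 with both granzymes. Clones 2 and 3 of that library (TRBV13-3 with TRBJ2-5, and TRBV19 with TRBJ1-4) held 8 members each, again 6 Gzmk-only and 2 with both. None of these 3 clones held a Gzmb-only member. Clone 4 (TRBV12-2 with TRBJ1-1), which tied with clones 2 and 3 at 8 members, was far larger. It had 157 receptor-bearing cells and 48 PD-1 positive granzyme-positive cells. Its members were 4 Gzmk-only, 1 Gzmb-only and 3 with both. Clone 1 of mavrilimumab 2 (TRBV15 with TRBJ2-1) held 33 cells and 6 members, all with both granzymes. Next to them were 13 cycling PD-1 negative granzyme-positive cells and 3 PD-1 positive granzyme-positive cells without a cycling UMI. Clones 2 to 4 of that library tied at 3 members. They were all with both granzymes in clone 2 (TRBV5 with TRBJ2-4) and all Gzmb-only in clone 3 (TRBV26 with TRBJ2-7). Clone 4 (TRBV29 with TRBJ1-1) held 1 Gzmb-only member and 2 with both, next to 5 PD-1 positive granzyme-positive cells.

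Members were present in all 4 libraries, but without equalized depth their share differed as much within a treatment group as between groups. They made up 5.88% of CD8 T cells in vehicle IgG 1 (4 of 68 cells, exact 95% interval 1.63 to 14.4), 18.6% in vehicle IgG 2 (381 of 2047, 16.9 to 20.4), 28.3% in mavrilimumab 1 (554 of 1960, 26.3 to 30.3) and 13.9% in mavrilimumab 2 (261 of 1877, 12.4 to 15.6). Intervals here are Clopper-Pearson intervals and cover counting error only. The mean share was 12.2% ± 9.0 (SD, n = 2) under vehicle IgG and 21.1% ± 10.2 (SD, n = 2) under mavrilimumab. The difference of 8.84 points gave p = 0.667 in a two-sided exact permutation test over libraries, which cannot go below 0.33 with 2 against 2. Between libraries with the same replicate number the difference was 22.4 points for number 1 and −4.71 points for number 2. When every cell was thinned to 2000 UMIs and the rule was applied again, the shares were 17.4% ± 6.88 and 28.8% ± 1.72, a difference of 11.4 points (exact permutation p = 0.33, n = 2 per group). Both mavrilimumab libraries then lay above both vehicle IgG libraries. Thinning also removes UMIs of Pdcd1, Cd4, Mki67 and Top2a, so the rule then chose a different set of cells. Members so chosen numbered 6, 275, 452 and 443 from vehicle IgG 1 to mavrilimumab 2, against 4, 381, 554 and 261 without thinning. In mavrilimumab 2 the PD-1 positive granzyme-positive cells fell from 174 to 81. The part of this change in the shares was not tested.

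Of all cells passing the filters, members made up 0.407%, 1.42%, 8.64% and 4.75% in the same order. Both mavrilimumab libraries lay above both vehicle IgG libraries on this scale (0.916% ± 0.720 against 6.70% ± 2.75, SD, n = 2), and the exact permutation p was 0.33, the smallest this design allows. That denominator includes every sorted cell type, and 715 of the 984 cells of vehicle IgG 1 were the CD3-negative reference cells. Among granzyme-positive CD8 T cells without a cycling UMI, PD-1 negative cells were 40.0% (vehicle IgG 1), 74.3%, 66.3% and 60%, where negative means that no Pdcd1 UMI was caught.

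**Figure D1:**
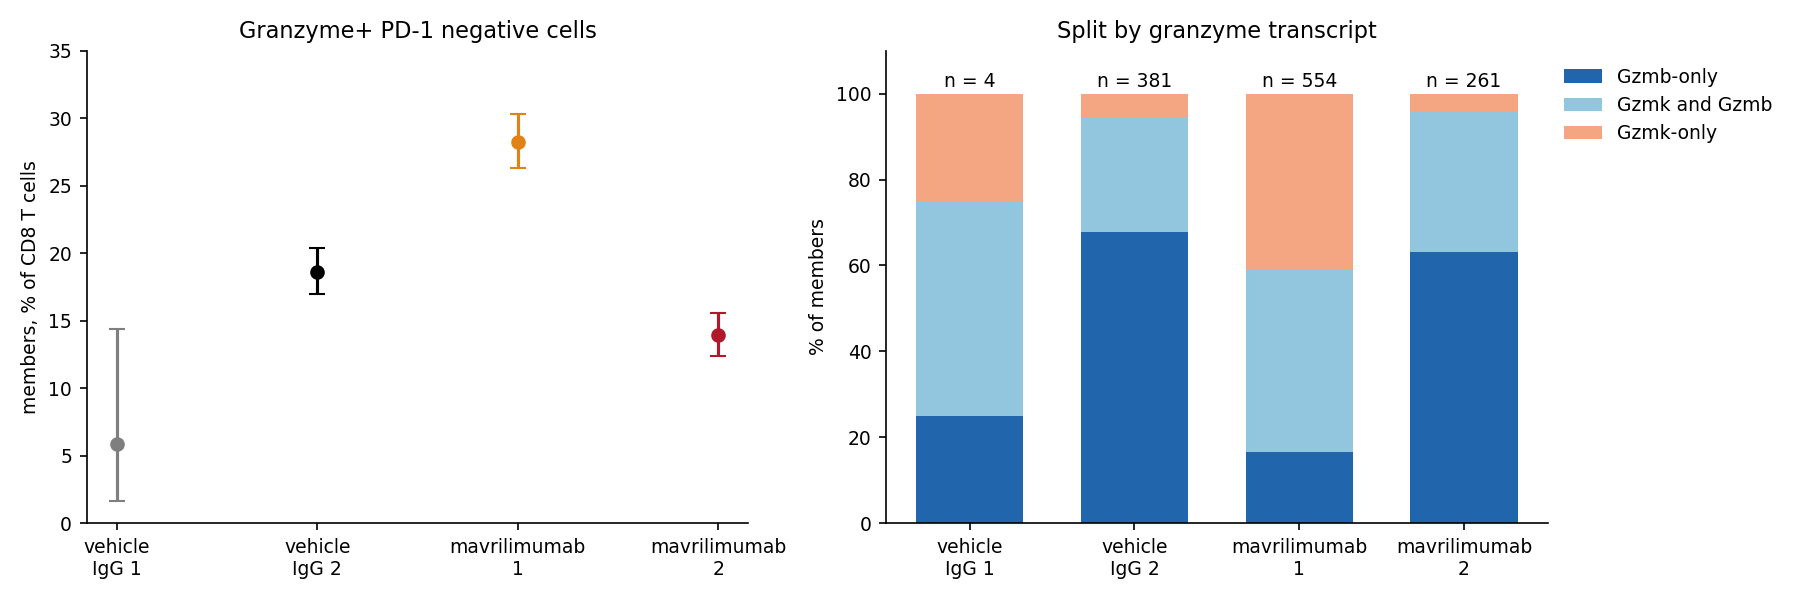
Left, members as a percent of CD8 T cells in each library, with exact 95% counting intervals. Right, the percent of members that were Gzmb-only, held both granzymes or were Gzmk-only, with the number of members above each bar. Mavrilimumab 1 had the highest share of members (28.3%) and was the library, apart from the 4 cells of vehicle IgG 1, in which Gzmk-only cells were common (41.2%).

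The genes that mark these cells were detected in nearly all members. At least 1 UMI of Nkg7, a granule protein of cytotoxic lymphocytes, was present in 99.2%, 99.6% and 99.2% of members of vehicle IgG 2, mavrilimumab 1 and mavrilimumab 2, and in all 4 of vehicle IgG 1. Ccl5, a chemokine stored by effector and memory CD8 T cells, was present in 90.0%, 98.6% and 89.3%. In the CD3-negative reference cells the shares were 2.29%, 5.57% and 17.5% for Nkg7 and 3.38%, 19.7% and 21.98% for Ccl5, at median depths of 6697, 7860 and 8337 UMIs. Granzyme-negative PD-1 negative CD8 T cells, which are T cells too, held Nkg7 in 76.9%, 92% and 87.8% and Ccl5 in 38.9%, 75.3% and 23.4%. The level of Ccl5 in counts per 1000000 UMIs (CPM) of the summed members was 2267, 4140, 6338 and 5106 from vehicle IgG 1 to mavrilimumab 2, and that of Nkg7 was 1303, 2285, 2735 and 2323. The receptors gave a further check of the cell type: 89.7% of members of mavrilimumab 1 (497 of 554) and 95% of mavrilimumab 2 (248 of 261) had an assembled T cell receptor. Foxp3, which defines regulatory T cells, stayed at or under 3.40 CPM.

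A PD-1 negative cell is a cell in which no Pdcd1 UMI was caught. To see what the gate separates, the UMIs of each cell were divided at random into a pair of equal portions, the gates were applied to the first, and Pdcd1 was read in the second. Cells called members in this way numbered 250, 489 and 376 in vehicle IgG 2, mavrilimumab 1 and mavrilimumab 2. The full rule gave 381, 554 and 261, so the sets are not the same. Cells called members on the first portion held a Pdcd1 UMI in the second in 14%, 13.1% and 16.5% of cells. PD-1 positive granzyme-positive cells did so in 55.6%, 47.5% and 70.8%. The share was 3.96%, 4.58% and 11.4% in the CD3-negative reference cells and 6.54%, 12.4% and 1.40% in granzyme-negative CD8 T cells. As a level, members held 110.6, 67.4 and 33.8 CPM of Pdcd1 in the second portion, PD-1 positive cells 600.7, 415 and 326, reference cells 21.2, 9.13 and 45.6, and granzyme-negative cells 55.0, 72.6 and 3.06. Barcodes under 100 UMIs, which hold mostly background RNA, had 24.9, 125.6 and 39.1 CPM of Pdcd1 in these libraries. The part of that RNA in the values of members was not tested. Members lay below the PD-1 positive cells in each of these libraries on both scales. In mavrilimumab 1 the granzyme-negative cells had a slightly lower share and a slightly higher level than members. In mavrilimumab 2 the level of members was below that of the reference cells, although the share of members with a UMI was above theirs. In vehicle IgG 1, 5 of the 6 cells so chosen held one.

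The number of granzyme UMIs varied widely among members. Those with exactly 2, just inside the threshold, numbered 0, 83, 91 and 23 in the library order above, and PD-1 negative CD8 T cells with 1 granzyme UMI, just outside it, numbered 0, 155, 132 and 45. At least 5 granzyme UMIs were held by 2, 211, 325 and 222 members. Gzmb-only members held a median of 6 Gzmb UMIs in vehicle IgG 2, 5.5 in mavrilimumab 1 and 34 in mavrilimumab 2, with 486 in the highest cell. Gzmk-only members held a median of 2, 4 and 5 Gzmk UMIs in those libraries. Members with both held a median of 1, 3 and 3 Gzmk UMIs next to 3, 4 and 11 of Gzmb.

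The split by granzyme differed widely between libraries. Gzmk-only cells were 5.51% of members in vehicle IgG 2 (21 cells, exact interval 3.44 to 8.30), 41.2% in mavrilimumab 1 (228 cells, 37.0 to 45.4) and 4.21% in mavrilimumab 2 (11 cells, 2.12 to 7.42). Gzmb-only cells were 67.7% (62.8 to 72.4), 16.6% (13.6 to 20.0) and 63.2% (57.1 to 69.1). Vehicle IgG 1 had 1 cell of each kind and 2 with both. The mean share of Gzmk-only cells was 15.3% ± 13.8 under vehicle IgG and 22.7% ± 26.1 under mavrilimumab (SD, n = 2 each, exact permutation p = 1), so the spread within the mavrilimumab group exceeded the difference of 7.43 points between the groups. The difference was 16.2 points between the libraries numbered 1 and −1.30 points between those numbered 2.

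The split is also a matter of what was caught in each cell. With gates on the first portion of UMIs and the count on the second, Gzmb appeared in 9.09% of Gzmk-only cells in vehicle IgG 2, 7.45% in mavrilimumab 1 and 38.1% in mavrilimumab 2. Gzmk appeared in 11.8%, 33.6% and 6.80% of Gzmb-only cells. In the CD3-negative reference cells, Gzmb appeared in 1.41%, 0.860% and 13.4% of cells and Gzmk in at most 0.287%. Barcodes under 100 UMIs held 60.5, 253.8 and 893.5 CPM of Gzmb and 2.67, 245.5 and 27.3 CPM of Gzmk. The part of that background RNA in the split was not tested.

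**Figure D2:**
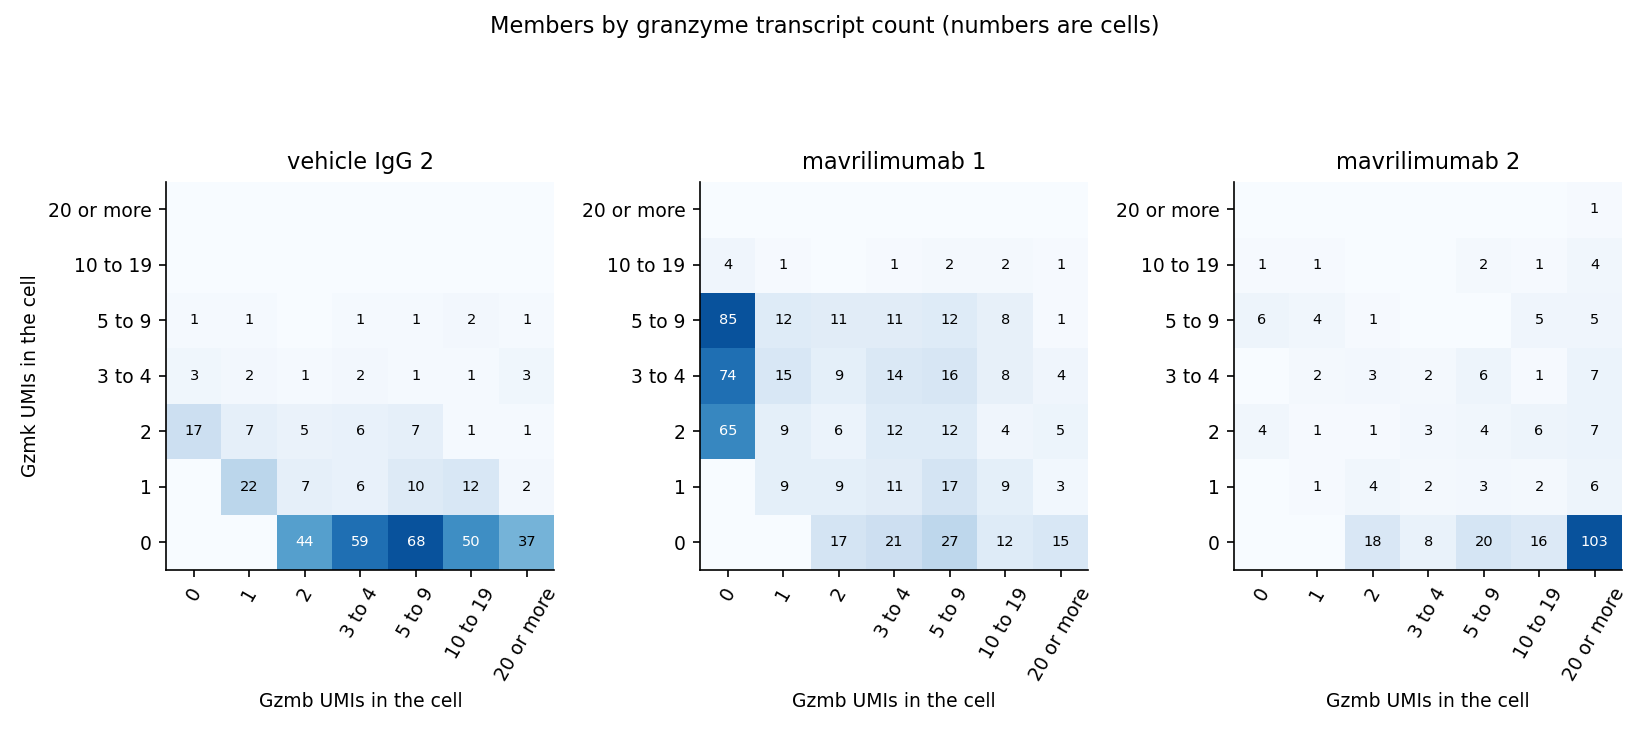
Number of members by Gzmk UMIs and Gzmb UMIs per cell in vehicle IgG 2, mavrilimumab 1 and mavrilimumab 2. Mavrilimumab 2 had its fullest field at 20 or more Gzmb UMIs without Gzmk (103 cells), vehicle IgG 2 at 5 to 9 Gzmb UMIs without Gzmk (68 cells) and mavrilimumab 1 at 5 to 9 Gzmk UMIs without Gzmb (85 cells).

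Gzmb-only and Gzmk-only members differed in genes far beyond the granzymes themselves. Gzmb-only cells held, as summed levels, more of NK receptors, the signaling adaptors Fcer1g and Tyrobp, granzymes A and C and integrins of tissue-resident cells. The NK receptor genes Klra7 and Klrb1c, and Fcer1g, were detected in a minority of them. Gzmk-only cells had more Slamf6, Cd28 and Itga4. UMIs were summed per library and kind and tested with edgeR's quasi-likelihood test in vehicle IgG 2 and mavrilimumab 1, the libraries with at least 20 cells of each kind. A gene was called at a Benjamini-Hochberg false discovery rate (FDR) under 0.05. Of 8685 genes tested, 30 (0.345%) were higher and 57 (0.656%) lower in Gzmk-only cells, with 578 at an unadjusted p under 0.05. Mavrilimumab 2, with 11 Gzmk-only cells, was not in this test and its levels stand beside the result. Gzmk-only cells held fewer UMIs, with a median of 2756, 4341.5 and 9713 in vehicle IgG 2, mavrilimumab 1 and mavrilimumab 2, against 3024.5, 5731 and 13813 in Gzmb-only cells.

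Killer lectin-like receptors, by which NK cells and some T cells read MHC class I molecules on other cells, were mostly lower in Gzmk-only cells. Of the 10 listed, 9 could be tested, 7 were lower in Gzmk-only cells and none was higher, with a median log2 fold change of −3.55 against −0.02 over all genes tested. With the 3 genes that had no UMI in Gzmk-only cells set to their bound, the median was −1.79. Klra7 (a Ly49 receptor) had no UMI in any Gzmk-only cell of the 3 libraries, whereas Gzmb-only cells held 351, 227 and 489 CPM in vehicle IgG 2, mavrilimumab 1 and mavrilimumab 2. It was at least 7.66-fold lower in Gzmk-only cells of vehicle IgG 2 and at least 78.4-fold lower in those of mavrilimumab 1, taking 3 UMIs per library as the limit that a count of 0 allows (edgeR FDR = 9.41e-08). Klrb1c, which encodes NK1.1, was likewise without a UMI in Gzmk-only cells and stood at 187, 83.6 and 290 CPM in Gzmb-only cells (at least 4.08-fold and 28.9-fold lower, FDR = 7.09e-06). Members with both granzymes were close to Gzmk-only cells in these genes, with 17.9, 0.935 and 26.3 CPM of Klra7. Klrd1 (CD94), in contrast, was expressed in both kinds and was lower in Gzmk-only cells by a log2 fold change of −1.11 ± 0.23 (SE, FDR = 0.0166).

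Klra7 and Klrb1c were detected in a minority of Gzmb-only cells. With every cell thinned to 2000 UMIs, Klra7 was detected in 26.2%, 14.3% and 23.9% of Gzmb-only cells of vehicle IgG 2, mavrilimumab 1 and mavrilimumab 2, and in 27.9%, 18.5% and 29.1% without thinning. The share in the CD3-negative reference cells was 0.325%, 0.822% and 4.87% at the thinned depth. Klrb1c was detected in 26.6%, 13.2% and 33.3% of thinned Gzmb-only cells, next to 0.732%, 1.10% and 13.2% of reference cells. No Gzmk-only cell held either gene, of 16, 224 and 11 thinned cells.

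The adaptor genes followed the same order. Fcer1g, which encodes the common Fc receptor gamma chain that relays signals of activating receptors, stood at 713, 297 and 928 CPM in Gzmb-only cells and at 61.1, 18.3 and 0 in Gzmk-only cells (log2 fold change −3.94 ± 0.30, FDR = 1.47e-07). It was detected in 36.2%, 19.8% and 42.1% of thinned Gzmb-only cells against 6.25%, 0.893% and 0% of Gzmk-only cells. Tyrobp, which encodes DAP12, differed by −2.03 ± 0.42 (FDR = 0.0173). Both genes are also expressed by microglia, and Fcer1g was present in 12.4%, 62.7% and 62.9% of thinned reference cells. The microglial list summed to 959, 1262 and 1422 CPM in Gzmb-only cells and to 1206, 1447 and 1233 CPM in Gzmk-only cells, and its part in these differences was not tested. The NK and gamma-delta T cell list, of which 6 of 8 genes were in the data, summed to 1141, 543 and 1584 CPM in Gzmb-only cells. In Gzmk-only cells it summed to 290, 360 and 65.3 CPM. That list contains Fcer1g, Tyrobp, Klrb1c and Eomes, so its sum repeats values given here for single genes. Of its defining genes, the gamma-delta receptor gene Trdc was at 7.57, 4.54 and 7.52 CPM in all members and the NK gene Ncr1 at 3.03, 0 and 16.8. An assembled T cell receptor was found in 88.0% and 93.9% of Gzmb-only cells of mavrilimumab 1 and 2. A receptor was counted only where a productive TRB chain was assembled, and 16 and 5 of all receptor-bearing members had no TRA chain.

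Of the cytotoxic list, which leaves out Gzmc and Gzmm, 2 of 17 genes tested were lower in Gzmk-only cells and none was higher, with a median of −0.13. Gzma, which encodes granzyme A, stood at 183, 15.4 and 24.5 CPM in Gzmk-only cells of the 3 libraries against 562, 164 and 618 in Gzmb-only cells (−2.73 ± 0.35, FDR = 8.57e-05). Cells with both granzymes had 830, 289 and 535 CPM, so for this gene they lay with the Gzmb-only cells. Xcl1, a chemokine that draws cross-presenting dendritic cells, stood at 244, 272 and 286 CPM against 1119, 808 and 1137 (−1.81 ± 0.22, FDR = 5.15e-05), with no overlap between the kinds. Outside the list, Gzmc, which encodes granzyme C, was at 0, 0.964 and 0 CPM in Gzmk-only cells (1 UMI in mavrilimumab 1) and at 296, 335 and 499 in Gzmb-only cells (FDR = 1.95e-08). Gzmm, which encodes granzyme M, was at 30.5, 42.4 and 24.5 CPM in Gzmk-only cells against 2.17, 7.43 and 2.98 in Gzmb-only cells and did not pass (2.74 ± 0.71, FDR = 0.0777). Clnk, an adaptor of immunoreceptor signaling, had 0, 0.964 and 0 CPM against 182, 102.2 and 224 (FDR = 2.80e-06).

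Not every effector gene followed the split. Ccl5 was at 4779, 6565 and 3569 CPM in Gzmk-only cells and at 3820, 4279 and 4148 in Gzmb-only cells (log2 fold change 0.41 ± 0.16, FDR = 0.513). Nkg7 was at 2092, 2519 and 1478 against 2314, 2479 and 2216 CPM (FDR = 0.999). Prf1, which encodes perforin, was at 107, 109 and 73.5 against 39.1, 96.6 and 66.5 CPM (FDR = 0.988).

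Of 11 tissue residency genes tested, 4 were lower and 1 higher in Gzmk-only cells. Itgae encodes the integrin CD103, which tethers T cells to E-cadherin. It was at 15.3, 8.67 and 0 CPM in Gzmk-only cells and at 330, 121 and 305 in Gzmb-only cells (−3.91 ± 0.39, FDR = 6.26e-06), with cells holding both granzymes between them at 182, 18.7 and 126. Itga1 (CD49a) fell by 1.97 ± 0.27 on the log2 scale (137, 77.1 and 65.3 against 323, 340 and 296 CPM, FDR = 0.00023), and Zfp683, the transcription factor Hobit, was at 30.5, 10.6 and 16.3 against 59.8, 89.2 and 110 CPM (−2.80 ± 0.47, FDR = 0.00222). The chemokine receptor gene Cxcr6 was lower as well (443, 251 and 253 against 491, 675 and 546 CPM, −1.05 ± 0.25, FDR = 0.0443). The member of the list that was higher was Itga4, the alpha 4 integrin chain used to enter the inflamed brain. It was detected in 56.3%, 83.0% and 72.7% of thinned Gzmk-only cells against 25.3%, 49.5% and 27.7% of Gzmb-only cells (log2 fold change 1.48).

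Slamf6, a surface receptor of memory and progenitor-like T cells, was at 15.3, 132 and 147 CPM in Gzmk-only cells and at 4.35, 16.7 and 13.2 in Gzmb-only cells (2.79 ± 0.45, FDR = 0.00149). Cd28, the costimulatory receptor, was at 107, 209 and 131 against 34.8, 53.9 and 36.7 CPM (1.82 ± 0.31, FDR = 0.00222). Both were higher in Gzmk-only cells of all 3 libraries, although the Slamf6 level of Gzmk-only cells in vehicle IgG 2 was 1 UMI. Eomes, a T-box factor of memory CD8 T cells, was at 91.6 and 320 against 21.7 and 78.1 CPM in the tested libraries (2.00 ± 0.29, FDR = 0.000497) but at 40.8 against 54.2 in mavrilimumab 2. With 10 cells as the minimum and all 3 libraries in the test, its FDR was 0.149. It was 0.0618 without vehicle IgG 2 and 0.940 without mavrilimumab 1. The inhibitory receptor list had 4 of 12 genes lower and none higher, among them Cd244a (−4.32 ± 0.56, FDR = 0.000115), Cd200r1 (−2.46 ± 0.49) and the costimulatory receptor Tnfrsf9 (−2.29 ± 0.43). Tox, a factor of chronically stimulated T cells, missed the threshold in the opposite direction (0.99 ± 0.24, FDR = 0.0537). Its levels in vehicle IgG 2, mavrilimumab 1 and mavrilimumab 2 were 351, 499 and 188 CPM in Gzmk-only cells. In Gzmb-only cells they were 232.6, 202.5 and 191 CPM, so mavrilimumab 2 showed no rise. Of 38 interferon response genes none was called and 33 were negative (median −0.13), and of 15 MHC class I genes none was called and 7 were negative, at a background of about 1 call in 100 genes.

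The largest rises in Gzmk-only cells by fold included Prr5l, Trf, Nkain2, Dgki, Plcl1, Marchf1 and Gnao1, several of which are expressed in neural tissue. Their high values were those of the 21 Gzmk-only cells of vehicle IgG 2: Prr5l stood there at 412 CPM, against 36.6 in mavrilimumab 1, and Nkain2 at 1191 against 16.4. The neural and tumor list summed to 3924 CPM in these 21 cells and to 2768 in the Gzmb-only cells of that library, against 253 and 216 in mavrilimumab 1. The part of this neural RNA in these rises was not tested.

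**Figure D3:**
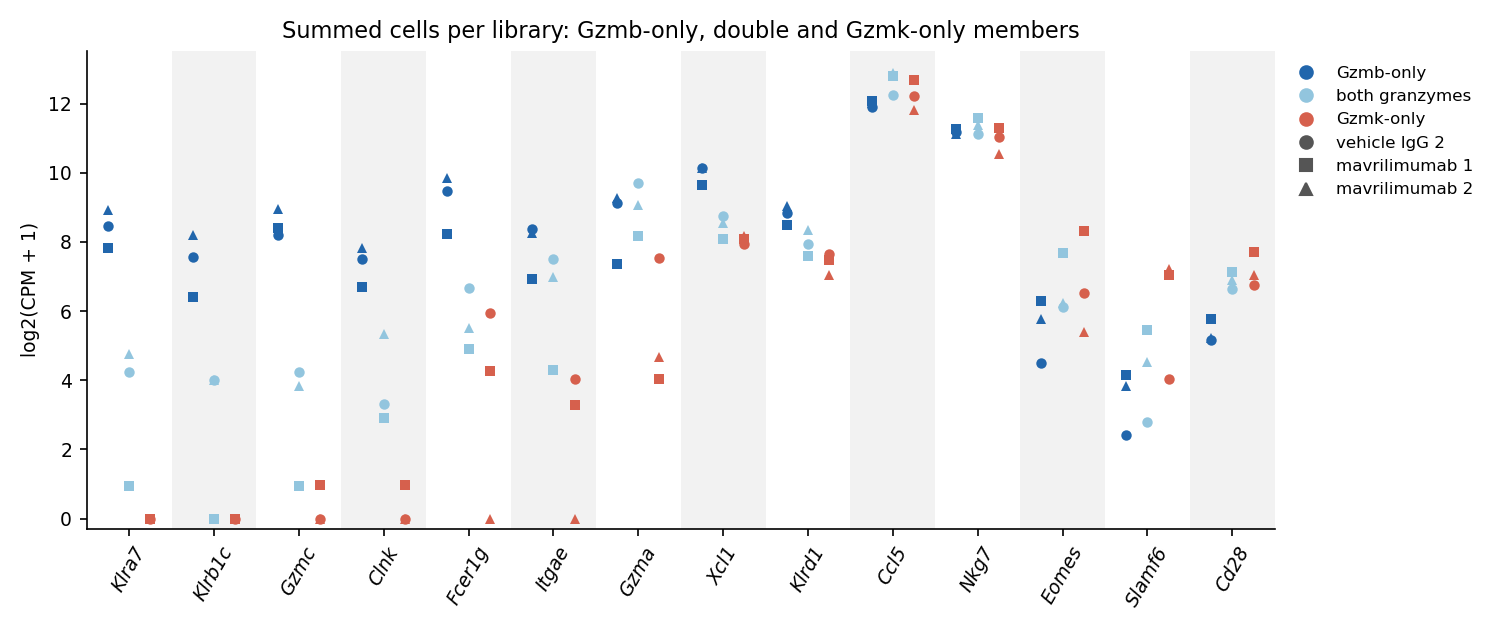
Levels of 14 genes as log2(CPM + 1) of summed cells, for Gzmb-only members, members with both granzymes and Gzmk-only members. Shapes mark vehicle IgG 2, mavrilimumab 1 and mavrilimumab 2. The summed levels of Klra7, Klrb1c, Gzmc, Clnk and Fcer1g are higher in Gzmb-only than in Gzmk-only cells in each library. Those of Ccl5 and Nkg7 overlap, and those of Slamf6 and Cd28 are higher in Gzmk-only cells.

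The mix of CD8 transcripts moved with the split. Among UMIs of the CD8 genes, the share of Cd8b1, the chain of the conventional alpha-beta heterodimer, was 44.7% (42.1 to 47.3), 53.1% (50.2 to 56.0) and 42.8% (41.3 to 44.3) in Gzmb-only cells of vehicle IgG 2, mavrilimumab 1 and mavrilimumab 2. It was 68.8%, 60.3% and 66.7% in Gzmk-only cells, 55.0%, 59.2% and 58.3% in cells with both, and 67.1%, 62.9% and 74.9% in granzyme-negative PD-1 negative CD8 T cells. Both genes were part of the selection, and these shares are a description. Their intervals count each UMI as an independent draw, although UMIs of the same cell or clone are not independent.

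Receptor clones gave a measure that the selection did not use. A clone was defined as cells with the same productive TRA and TRB CDR3 nucleotide sequences, and a cell was expanded if its clone held at least 2 cells in that TCR library. Expanded cells made up 61.8% of receptor-bearing members in mavrilimumab 1 (exact interval 57.3 to 66.1) and 39.5% in mavrilimumab 2 (33.4 to 45.9). Over all CD8 T cells with a receptor the shares were 60.1% (57.8 to 62.4) and 32.4% (30.2 to 34.7), so members lay 1.62 and 7.097 points above them. The shares were 77.4% (71.8 to 82.3) and 65.1% (57.0 to 72.7) in PD-1 positive granzyme-positive cells, and 31.5% (26.0 to 37.4) and 4.51% (2.88 to 6.69) in granzyme-negative PD-1 negative cells. In vehicle IgG 1 a receptor was found for 2 of 4 members, neither of them expanded. Each of these differences between members and another set had the same sign in both libraries, and an exact two-sided permutation test within libraries gave p = 0.5, the smallest that 2 libraries allow. Raising the limit to 4 cells lowered the shares of members to 39.4% and 16.9%.

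Expansion differed between the kinds of member. In mavrilimumab 1, 68.3% of Gzmk-only cells (142 of 208, 61.5 to 74.5) and 66.8% of cells with both granzymes (139 of 208) were expanded, against 32.1% of Gzmb-only cells (26 of 81, 22.2 to 43.4). In mavrilimumab 2 the shares were 50.0% (5 of 10, 18.7 to 81.3), 51.8% (43 of 83) and 32.3% (50 of 155, 24.98 to 40.2). Cells with both granzymes had a higher share than Gzmb-only cells in both libraries, by 34.7 and 19.5 points, and Gzmk-only cells by 36.2 and 17.7 points. The exact two-sided permutation p within libraries was 0.5 for either difference, the smallest that 2 libraries allow. The interval of the 10 Gzmk-only cells of mavrilimumab 2 includes the shares of both other kinds, and cells of 1 clone are not independent.

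**Figure D4:**
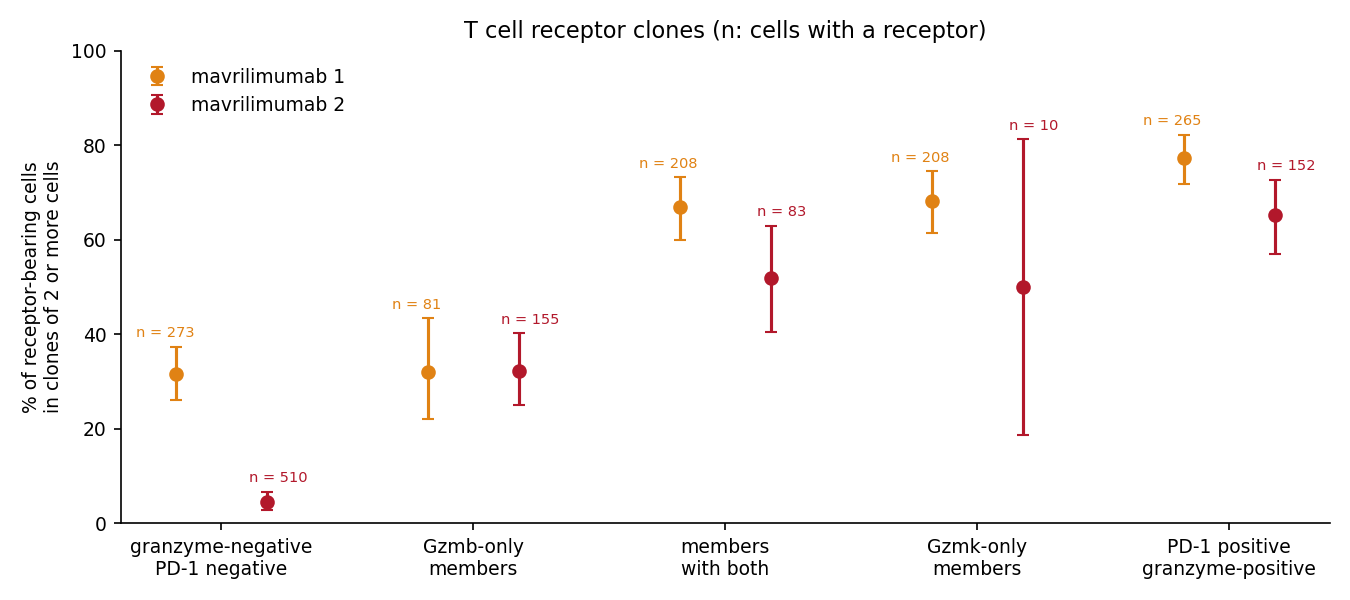
Percent of receptor-bearing cells whose clone held at least 2 cells, with exact 95% counting intervals, in the 2 mavrilimumab expression libraries. Gzmb-only members lie at 32.1% and 32.3%, members with both at 66.8% and 51.8%, and PD-1 positive granzyme-positive cells at 77.4% and 65.1%.

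More clones combined Gzmk-only cells with cells holding both granzymes than with Gzmb-only cells, a difference that was not tested. Members of mavrilimumab 1 fell into 336 clones, of which 72 held at least 2 members. Of these 72, 35 combined Gzmk-only cells with cells holding both, 11 combined Gzmb-only cells with cells holding both, 1 combined Gzmk-only with Gzmb-only cells, and 3 held all 3 kinds. A further 10 held Gzmk-only cells alone, 11 cells with both alone, and 1 Gzmb-only cells alone. In mavrilimumab 2, 19 of 222 clones held at least 2 members: 7 were Gzmb-only alone, 5 combined Gzmb-only cells with cells holding both, 3 combined Gzmk-only cells with cells holding both, and 4 held cells with both alone. These counts follow from the number of cells of each kind as well as from the clones.

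The clones of members also contained cells outside the selection. In mavrilimumab 1, 146 of the 336 clones held at least 2 receptor-bearing cells, and only these can hold a cell beside a member. Of the 146, 53 held a PD-1 positive granzyme-positive cell, 51 a cycling PD-1 negative granzyme-positive cell and 31 a granzyme-negative PD-1 negative cell. In mavrilimumab 2, 72 of 222 clones held at least 2 receptor-bearing cells, and the numbers were 24, 41 and 6 of these 72. The largest clone of mavrilimumab 1, with 157 receptor-bearing cells, contributed 8 members. No TRB sequence was shared between the members of mavrilimumab 1 (339 sequences) and those of mavrilimumab 2 (232 sequences).

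Set against granzyme-negative PD-1 negative CD8 T cells (0 UMIs of Gzmb and Gzmk), members had more transcripts of granzymes A and C, of some chemokines and of some inhibitory receptors, and fewer of most genes of naive T cells. Of 10108 genes tested in vehicle IgG 2, mavrilimumab 1 and mavrilimumab 2 with the library as a factor, 72 (0.712%) were higher and 110 (1.09%) lower in members, with 2282 at an unadjusted p under 0.05. Gzmc was at 211, 68.8 and 342 CPM in members and at 1.31, 0.753 and 3.97 in granzyme-negative cells (log2 fold change 6.58 ± 0.21, edgeR FDR = 0.00017). Gzma was at 611, 156 and 574 against 22.2, 10.54 and 4.91 CPM (5.33 ± 0.50, FDR = 0.0095). For both genes each library's members lay far above the granzyme-negative cells of every library.

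All 18 genes of the cytotoxic list, which leaves out Gzmc and Gzmm, had positive values, with a median of 1.34 against 0.01 over all genes, and 5 passed the test. Ccl4, a chemokine that attracts T cells and macrophages, was at 159, 88.1 and 197 against 35.7, 41.4 and 26.2 CPM (2.10 ± 0.32, FDR = 0.0413). Ccl5 (1.81 ± 0.38, FDR = 0.0635), Nkg7 (1.19 ± 0.23, FDR = 0.0557) and Prf1 (0.84 ± 0.15, FDR = 0.0529) missed the threshold narrowly. Ccl5 was at 4140, 6338 and 5106 CPM in members and at 1298, 3611 and 616 in granzyme-negative cells. Gzmm was at 3.03, 34.8 and 6.94 CPM in members against 8.72, 25.6 and 7.36 (−0.09 ± 0.34, FDR = 0.911). For Ccl5 too, members of each library lay above the granzyme-negative cells of all 3.

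Of 13 inhibitory genes tested, 4 were called higher in members and none lower, with a median of 1.82. Tigit, which competes with a costimulatory receptor for its ligands, was at 102.2, 72.2 and 98.9 against 28.8, 17.3 and 4.53 CPM (2.73 ± 0.48, FDR = 0.0489). Entpd1, which encodes the ectonucleotidase CD39, was at 76.5, 90.4 and 121 against 30.9, 21.8 and 11.5 CPM (2.28 ± 0.38, FDR = 0.0466). Lilrb4a (2.15 ± 0.37, FDR = 0.0489) and Cd244a (3.52 ± 0.48, FDR = 0.0312) completed the calls. Lag3 (1.71 ± 0.44, FDR = 0.0913) and Tox (0.63 ± 0.15, FDR = 0.0731) did not pass.

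Most of the naive and memory list was lower in members, with 11 of 18 genes called, none higher and a median of −2.16. Ccr7, which guides T cells into lymph nodes, was at 11.4, 18.2 and 29.8 CPM in members and at 223, 185 and 519 in granzyme-negative cells (−3.92 ± 0.21, FDR = 0.00158). Il7r, the receptor of the survival cytokine IL-7, was lower by −2.96 ± 0.50 (FDR = 0.0467), and Lef1, a transcription factor of naive cells, by −2.40 ± 0.29 (FDR = 0.0248). Igfbp4 had the largest named fall (8.33, 1.13 and 12.7 against 116, 36.9 and 200 CPM, −4.07 ± 0.20, FDR = 0.00157). Other named falls were Dapl1 (−3.57 ± 0.44), Cmah (−3.04 ± 0.41) and Rflnb (−2.67 ± 0.18). Tcf7, which encodes the factor TCF-1, had 41.7, 172 and 77.2 against 334, 324 and 655 CPM and missed the threshold (−2.33 ± 0.44, FDR = 0.054).

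Fcer1g was at 526, 79.4 and 642 CPM in members and at 44.0, 25.6 and 16.4 in granzyme-negative cells (3.70 ± 0.62, FDR = 0.0467), and Tyrobp differed by 2.93 ± 0.37 (FDR = 0.0289). The NK and gamma-delta list, which contains both genes, summed to 882, 356 and 1151 CPM in members against 120, 133 and 61.7. Of its other genes, Klrb1c was at 134, 17.0 and 201 against 11.3, 16.6 and 3.40 CPM, Trdc at 7.57, 4.54 and 7.52 against 3.92, 3.76 and 6.04, and Ncr1 at 3.03, 0 and 16.8 against 0.872, 0 and 0. The part of NK cells in these differences was not tested. Of the chemokine receptors 2 of 9 were higher, among them Ccr2 (2.17 ± 0.26). Ccr7 and the gut-homing receptor gene Ccr9 (−3.80 ± 0.25) were lower. Of 11 residency genes 2 were higher, among them Zfp683 (2.80 ± 0.48). MHC class I genes were positive in 15 of 15 with a median of 0.51 and 3 calls, H2-Q7 (0.53 ± 0.09), B2m (0.45 ± 0.08) and H2-K1 (0.44 ± 0.07). Interferon response genes were positive in 37 of 38 with a median of 0.82, but only Gbp7 was called (0.94 ± 0.13). Without vehicle IgG 2, 1 gene was called, Gzmc (6.38, FDR = 0.0204). All 182 genes kept their direction there, and the median size of their log2 fold change was 1.78 against 1.66 with all 3 libraries. The number of calls was 386 without mavrilimumab 1 and 772 without mavrilimumab 2. Each of these fits held 2 libraries, and the cause of the differing counts was not tested.

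Set against PD-1 positive granzyme-positive CD8 T cells, which differ from members by the Pdcd1 gate alone, members differed in few genes. Of 9557 genes tested in the same 3 libraries, 6 (0.0628%) were higher and 3 (0.0314%) lower in members, with 807 at an unadjusted p under 0.05. Killer lectin-like receptors were positive in 10 of 10, with a median of 0.78 against 0.00 over all genes, and 3 passed the test. Klra7 was at 249, 46.5 and 339 CPM in members against 153, 20.1 and 128 (1.20 ± 0.14, FDR = 0.021), Klre1 at 173, 91.1 and 216 against 88.0, 51.3 and 95.9 (1.06 ± 0.11, FDR = 0.0087), and Klra6 at 82.5, 15.9 and 79.8 against 31.6, 4.01 and 25.9 (1.63 ± 0.16, FDR = 0.0087). Gzmc was at 211, 68.8 and 342 against 11.3, 6.42 and 74.6 CPM (2.60 ± 0.22, FDR = 0.0087). Within each library, members held more of these 4 genes than the PD-1 positive cells. The NK and gamma-delta list was positive in 5 of 6 genes without a call (median 0.28) and summed to 882, 356 and 1151 CPM in members against 706, 397 and 691. Of its genes, Klrb1c was at 134, 17.0 and 201 against 99.3, 5.61 and 84.6 CPM, Ncr1 at 3.03, 0 and 16.8 against 11.3, 0 and 10.5, and Trdc at 7.57, 4.54 and 7.52 against 6.77, 19.2 and 10.0. The part of NK cells in these differences was not tested.

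Lag3, an inhibitory receptor that binds MHC class II, was lower in members (8.33, 33.3 and 12.4 against 24.8, 110 and 34.6 CPM, −1.59 ± 0.15, FDR = 0.0087). The inhibitory list was negative in 13 of 15 genes with a median of −0.75, and Lag3 was its 1 call. Lists of other cell types were negative too, without a call: the microglial list in 9 of 11 genes (median −0.78) and the CD4 and regulatory T cell list in 3 of 3 (median −0.96). The microglial list summed to 948, 1309 and 1510 CPM in members against 1972, 1308 and 1800 in PD-1 positive cells, and the CD4 and regulatory list to 25.8, 25.3 and 20.5 against 42.9, 75.4 and 31.4. Their part in the inhibitory list was not tested. Tigit (−0.65 ± 0.19, FDR = 0.337) and Tox (−0.75 ± 0.22, FDR = 0.357) did not pass. Serpina3g, a protease inhibitor of activated T cells, was at 196, 305 and 205 against 300.1, 444 and 299.6 CPM (−0.54 ± 0.07, FDR = 0.0383). Other calls included Nrp1, which was lower, and the receptor segment Trav5-4, which was higher.

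The cytotoxic list, which leaves out Gzmc, gave no call among 18 genes, with a median of −0.15. Ccl5 was at 4391, 7993 and 5554 CPM in PD-1 positive cells, against 4140, 6338 and 5106 in members (−0.16 ± 0.05, FDR = 0.412), and Nkg7 and Gzma did not pass either (FDR = 0.353 and 0.644). T cell receptor signaling genes were negative in 15 of 15 without a call (median −0.11), and 0 of 38 interferon genes were called. No gene was called after thinning to 2000 UMIs, where 378 had an unadjusted p under 0.05. Gzmc kept its size there (2.44, FDR = 0.0635), and Serpina3g had an FDR of 0.643.

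**Figure D5:**
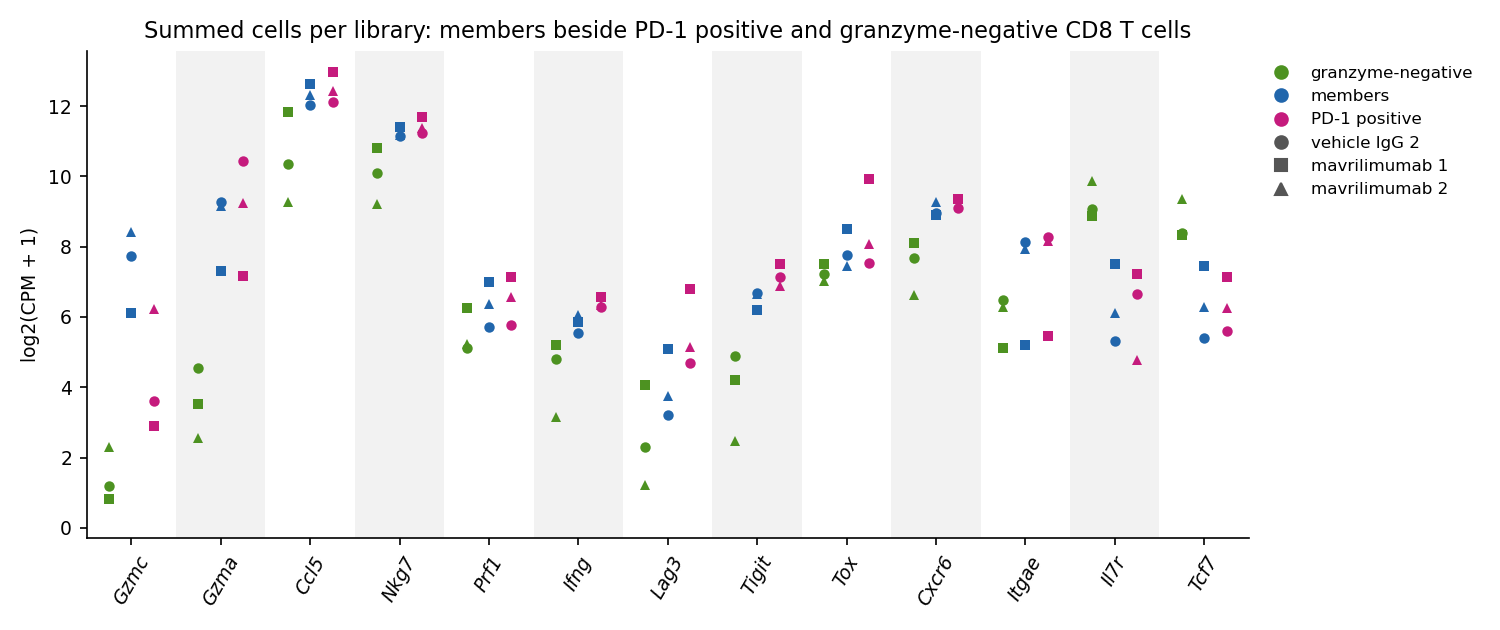
Levels of 13 genes as log2(CPM + 1) of summed cells in granzyme-negative PD-1 negative CD8 T cells, members and PD-1 positive granzyme-positive CD8 T cells. Shapes mark vehicle IgG 2, mavrilimumab 1 and mavrilimumab 2. Within each library Gzmc is highest in members, Lag3 is lower in members than in PD-1 positive cells, and Il7r and Tcf7 are highest in granzyme-negative cells.

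Between treatments, members of the libraries labelled mavrilimumab had more of a few interferon-induced transcripts and far less of the neural transcripts than those of vehicle IgG 2. The comparison had 1 vehicle IgG library against 2, since vehicle IgG 1 held 4 members, and assumes that the lone library varies like the others. Of 11612 genes tested, 11 (0.0947%) were higher and 836 (7.2%) lower under mavrilimumab, with 1830 at an unadjusted p under 0.05. Differences between animals, libraries and treatment cannot be told apart here.

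Type I interferon response genes were positive in 38 of 38, with a median of 1.23 against 0.00 over all genes, and 4 passed the test. Ifit1, which blocks translation of viral RNA, was at 69.7 CPM in vehicle IgG 2, 314 in mavrilimumab 1 and 170 in mavrilimumab 2 (1.83 ± 0.42, FDR = 0.0454). It was at 313 CPM in the 4 members of vehicle IgG 1, as high as in mavrilimumab 1, so the vehicle IgG libraries lay on both sides. Rsad2, which encodes viperin, was at 32.6, 164 and 85.9 CPM (1.98 ± 0.43, FDR = 0.0407) and at 156 in vehicle IgG 1. The interferon list summed to 21008 CPM in vehicle IgG 1, 6658 in vehicle IgG 2, 18599 in mavrilimumab 1 and 10471 in mavrilimumab 2. The other named rises in this pathway were Ifi214 (1.64 ± 0.34), Ifi206 (1.63 ± 0.35), Oas1a (1.33 ± 0.31) and the chemokine gene Cxcl10 (85.6, 299 and 206 CPM, 1.61 ± 0.34, FDR = 0.0343).

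Dgka, a kinase that dampens receptor signaling, differed by 1.36 ± 0.31 (FDR = 0.0461). The 4 members of vehicle IgG 1 stood above both mavrilimumab libraries for Dgka (234.6 against 153 and 114 CPM), Ifi206 (652 against 284 and 188) and Oas1a (182 against 91.1 and 67.7). They stood below both for Ifi214 (26.1 against 167 and 112) and Cxcl10 (52.1 against 299 and 206). MHC class I genes were positive in 15 of 15 (median 0.81) and T cell receptor signaling genes in 15 of 15 (median 0.62), with no call in either list. None of the 18 genes of the cytotoxic list was called (median 0.19): Ccl5 differed by 0.52 ± 0.45 (FDR = 0.721) and Nkg7 by 0.20 ± 0.39 (FDR = 0.896). No gene was called higher when cells were thinned to 2000 UMIs, without members that held defining genes of other lineages, without the cells scored highest as doublets, or with vehicle IgG 1 included, where 2 were with the replicate number as a block. The difference of Ifit1 was 1.153, 1.81, 1.43, 1.14 and 1.02 in these fits.

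Most of the 8 named falls were neural genes. Dcc, an axon guidance receptor, was at 717 CPM in members of vehicle IgG 2, 0 in mavrilimumab 1 and 0.87 in mavrilimumab 2. The synaptic genes Nrxn3 and Nlgn1 were at 916 and 224 CPM, against at most 2.02 and 0.58, and Opcml and Ctnna2 at 186 and 204 against at most 0.29 each. Grik2, a glutamate receptor gene, had 153 CPM and no UMI under mavrilimumab (at least 135-fold and 176-fold lower). These UMIs were spread over 92 of 381 members for Dcc, 74 for Nrxn3, 71 for Nlgn1, 48 for Grik2 and Opcml and 46 for Ctnna2. A pair of further named falls are not neural genes: Mgst1, a glutathione transferase (178 CPM, at least 157-fold and 205-fold, in 84 members), and the mast cell protease Mcpt1 (176 CPM, at least 156-fold and 203-fold). Of the 233 UMIs of Mcpt1, 232 lay in 1 cell, so that value is of 1 member. All 8 passed the test, and none of them had a UMI in the 4 members of vehicle IgG 1. Of the 12 neural and tumor genes, 11 were lower (median −7.27, or −6.50 with the gene at 0 set to its bound). The list summed to 521, 3070, 243 and 207 CPM in members from vehicle IgG 1 to mavrilimumab 2, and at least 2 of its UMIs were found in 73.8% of members of vehicle IgG 2. The granzyme-negative CD8 T cells of that library held 3081 CPM. The part of this RNA in the treatment differences was not tested. Without members holding 2 or more UMIs of genes that define microglia, B cells or neural cells, 50 genes were called, all lower.

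At least 2 UMIs of the other-lineage lists were present in 4, 327, 497 and 259 members from vehicle IgG 1 to mavrilimumab 2, which is most of them. The microglial list summed to 2320, 948, 1309 and 1510 CPM in the same order, against 42539, 4326, 19879 and 25937 in the CD3-negative reference cells. B cell genes summed to 26.1, 261, 225 and 215 CPM and neutrophil genes to at most 9.55. Globin genes summed to 446 CPM in members of mavrilimumab 2 and to 657 CPM in its Gzmb-only cells, each per their own UMIs. Only 4.21% of these members held a globin UMI and 1.149% held 2 or more, so a few cells carried that sum. Globin genes summed to at most 26.1 in the other libraries. Defining genes of microglia, B cells or neural cells reached 2 UMIs in 2, 105, 18 and 37 members. Scrublet scores ranked 0 of 4, 68 of 381, 8 of 554 and 15 of 261 members among the likely doublets. The number ranked was set beforehand by library size, at 0.787%, 21.4%, 5.13% and 4.39% of all cells.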

How the data were processed

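Single-cell 5′ gene expression and TCR libraries were analysed. The deposited matrices hold raw UMI counts per gene and barcode, from Cell Ranger, for which the headers state version 9.0.1 and the submitters' processing notes 7.1.0, beside Scanpy 1.8.2 and mm10. The deposited TCR files hold assembled contigs with UMI counts. Members, lists and tests were chosen with earlier results of these data known. Cells were not filtered for doublets beyond the rule. Counts were summed per library and cell set and tested with edgeR 4.0.16 (quasi-likelihood, TMM, filterByExpr, FDR 0.05, at least 20 cells per library and set), with the library as a factor between cell sets. Each SE is the log2 fold change over the root of its F statistic. Alternatives used DESeq2 1.42.0, limma 3.58.1 and scanpy 1.11.5. Named genes were up to 8 rises and 8 falls by fold past the FDR with a mean of at least 50 CPM and 1 direction in every library, excluding predicted, ribosomal, mitochondrial and receptor segment genes, together with a fixed panel and called list examples. The models were tested on simulated data. Some genes are not reported here.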

Additional observations from a re-analysis of the deposited data

How the results depend on the processing

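Numbers of called genes moved widely with the processing, and the cause was not tested. The treatment comparison (847 genes) gave 1816 without a filter on low counts, 48 with vehicle IgG 1 included (minimum of 1 cell), 66 thinned to 2000 UMIs, 78 without the top Scrublet scores, 50 without defining other-lineage UMIs and 53 with the replicate number as a block (vehicle IgG 1 included). Against PD-1 positive cells (9 genes), the counts were 302 unfiltered, 49 by limma-voom, 40 with a minimum of 1 cell, 0 thinned, 91 without top Scrublet scores, 94 without defining other-lineage UMIs, and 36 to 143 with 1 library left out. Against granzyme-negative cells (182 genes), they were 105 with RLE size factors, 1447 unfiltered, 304 by DESeq2, 440 by limma-voom, 598 with a minimum of 1 cell, 565 thinned, 320 without top Scrublet scores, 3 without other-lineage UMIs, 308 without defining other-lineage UMIs, 60 with gates and sums on separate portions, and 1 to 772 with 1 library left out. Between Gzmk-only and Gzmb-only cells (87 genes), they were 187 with RLE size factors, 132 unfiltered, 23 by DESeq2, 144 on separate portions, 22 thinned and 2 without other-lineage UMIs (minimum of 1 cell). The alternatives on defining other-lineage UMIs, and those of the Gzmk-only and Gzmb-only test with a minimum of 1 or 10 cells, were chosen after seeing the data.

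In the paired analysis (replicate block), the share differences were those of the unpaired means, 8.84 points among CD8 T cells, 5.78 among all cells and 7.43 for Gzmk-only cells, and the labels tie equal numbers to no shared animal, litter or day, so the samples share only a number. Few values changed sign. Without members holding 2 or more other-lineage UMIs, which removes 4, 327, 497 and 259 members, the share difference among CD8 T cells was −3.62 points and Gzma was 1.31 between the kinds. With 1 library left out, the difference in the share of Gzmk-only cells among members ran from −11.04 to 25.9 points, that among CD8 T cells from 1.66 to 16.0 and that among all cells from 3.84 to 7.73. Clones of 4 or more cells gave 39.4% and 16.9%. The Gzmk-only test at a minimum of 20 cells could not be fitted for the thinned, doublet, other-lineage, 3-UMI and left-out-library alternatives, which leave 1 library, and the treatment comparison had no test with a mavrilimumab library left out or without other-lineage UMIs.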

Other observations

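Gzmb-only cells were also split by Fcer1g, a division chosen after its values were seen and given as a description. In mavrilimumab 1, 9.52% of Gzmb-only cells with an Fcer1g UMI (2 of 21, exact 95% interval 1.17 to 30.4) belonged to clones of at least 2 cells, against 40.0% of those without (24 of 60, 27.6 to 53.5). In mavrilimumab 2 the shares were 26.0% (20 of 77, 16.6 to 37.2) and 38.5% (30 of 78, 27.7 to 50.2), and the intervals overlapped in both libraries.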
